A study of Caenorhabditis elegans with 2 samples.

Results

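The genes described here handle sterols, help make dafachronic acid, the steroid hormone of Caenorhabditis elegans, or were listed as cofactors of its receptor DAF-12. There were 9 of them among 19973 nuclear protein-coding genes: daf-9, daf-36, hsd-1, dhs-16, strm-1, ncr-1, ncr-2, din-1 and nhl-2. They were listed by their known roles, and a binding site was assigned to a gene when its summit, the position of highest signal within a region, lay in the gene body or within 5 kb upstream of its 5′ end. Binding of NHR-48, a nuclear hormone receptor related to DAF-12, was mapped by ChIP-seq with an anti-GFP antibody in hermaphrodite L4 larvae of strain OP518 at 48.5 h after release from L1 starvation. These worms carry the unc-119(tm4063) allele and the integrated transgene wgIs518, which stably expresses NHR-48 with a C-terminal GFP and FLAG tag. The 2 libraries are biological replicates 1 and 2 of this single group, come from separate biosamples of the same strain, and both carry the allele and the transgene. The promoter that drives the transgene is not stated in the labels. Whole animals were used, so the cells in which a site was bound cannot be told apart, and no expression was measured.

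Dafachronic acid is made from dietary cholesterol. Sterols are moved within cells by transport proteins, oxidised and reduced by a chain of enzymes, and turned into the active hormone by the cytochrome P450 DAF-9. With hormone, DAF-12 supports reproductive growth and switches on microRNA genes of the let-7 family; without it, DAF-12 works with the corepressor DIN-1 and promotes arrest as a dauer larva. NHL-2, a TRIM-NHL protein, assists the microRNA silencing complex and is known for its action with let-7 family microRNAs rather than as a direct partner of DAF-12.

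NHR-48 had reproducible sites at the corepressor gene din-1 and upstream of nhl-2, and none at the 7 genes of sterol handling and hormone synthesis. The list of sites that passed the irreproducible discovery rate procedure (IDR peaks), which compares the ranking of regions between replicates, held 3361 peaks. Of these, 8 had their summit at din-1 and 1 at nhl-2, and 0 at the other 7 genes. The nhl-2 summit lay nearer to the 5′ end of the neighbouring gene tag-340. By the same rule 20.0% of all protein-coding genes had an IDR summit, so 0 of 7 genes does not set the sterol genes apart. The 100 bases centred on the summit of the single nhl-2 peak and of din-1 peaks are given because they lie under the strongest signal; the din-1 peaks shown are the 5 of highest pooled signal, of which the site in a 5′ UTR is cut to 30 bases. All are the plus strand of ce11 (RefSeq, WBcel235), 5′ to 3′, while both genes lie on the minus strand. Capitals mark matches to searched hexamers on either strand, and runs of capitals can hold overlapping matches. The hexamer GAGAGA was searched as the core of GA-rich repeats. The palindrome CACGTG was searched because it is the E-box of helix-loop-helix factors. The sequence TGATAA is the core site of GATA-type factors. For nuclear receptors the hexamer AGTGCA was searched together with the related sequence AGTTCA, both of which DAF-12 is known to recognise. The last one searched was AGGTCA, the general half-site of nuclear receptors.
nhl-2 upstream peak, chrIII:4899877-4899976: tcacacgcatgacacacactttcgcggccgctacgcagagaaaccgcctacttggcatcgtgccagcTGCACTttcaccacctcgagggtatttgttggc
din-1 upstream peak of highest signal, chrII:11635901-11636000: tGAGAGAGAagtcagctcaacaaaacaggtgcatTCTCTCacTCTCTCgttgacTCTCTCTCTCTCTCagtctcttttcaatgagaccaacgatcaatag
din-1 upstream peak beside snoRNA gene ZK20.9, chrII:11635174-11635273: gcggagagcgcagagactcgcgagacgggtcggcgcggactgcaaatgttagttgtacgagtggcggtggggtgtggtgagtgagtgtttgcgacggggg
din-1 upstream peak in ncRNA gene ZK20.8, chrII:11634283-11634382: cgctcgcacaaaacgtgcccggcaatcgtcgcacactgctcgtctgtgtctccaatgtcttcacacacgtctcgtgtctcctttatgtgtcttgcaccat
din-1 internal peak before the 5′ end of transcript F07A11.6d.1, chrII:11620129-11620228: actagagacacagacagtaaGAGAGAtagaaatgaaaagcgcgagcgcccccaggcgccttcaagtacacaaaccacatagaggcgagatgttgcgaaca
din-1 site in the 5′ UTR of F07A11.6d.1, chrII:11619355-11619384: gttgaaAGTGCAaccaaAGTGCAcacgtcg

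The GAGAGA hexamer, read on either strand, was the sequence that recurred at the strongest din-1 peak, with 9 matches in its window, several of them overlapping. The internal peak at summit 11620179 held 1 GAGAGA. Thus 2 of the 9 windows at these genes held GAGAGA, against 21.9% of the 3338 windows around nuclear IDR summits. AGTGCA occurred in 2 of 9 windows, against 6.14% of all: 1 match lay 19.5 bp from the nhl-2 summit, and the 5′ UTR site of din-1 held a pair of matches, centred 1.5 and 9.5 bp from its summit. AGTTCA was in 1 window, that of the din-1 peak 815 bp inside the gene, against 5.27% of all. CACGTG (7.91% of all windows), TGATAA (20.3%) and AGGTCA (3.45%) were in 0 of the 9. A match is a description of these letters and not evidence that a factor was bound there. The 9 windows held 32.0% to 64.0% G and C, and the median over all windows was 44% (quartiles 38% and 50%).

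The count of genes with a peak did not set the 9 apart. An IDR summit lay at 2 of the 9 genes (22.2%, exact 95% Clopper-Pearson interval 2.81 to 60.0), against 4004 of 19973 protein-coding genes (20.0%). For the 7 genes of synthesis, sterol methylation and transport the count of 0 had an upper exact bound of 41.0%. These intervals take genes as independent draws. The 9 genes were hand-picked and neighbouring genes can share a summit, so the intervals describe the counts and are no test. From the shortest to the longest of 5 classes of window length, 17.0%, 15.6%, 17.9%, 23.1% and 26.7% of genes held a summit. In the longest class, with windows of 9321 bp and more, 2 of the 5 genes described here had one, against 1068 of 3995 genes (26.7%, interval 25.4 to 28.1). The classes of the other 4 genes had shares of 17.9% and 23.1%.

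**Figure D1:**
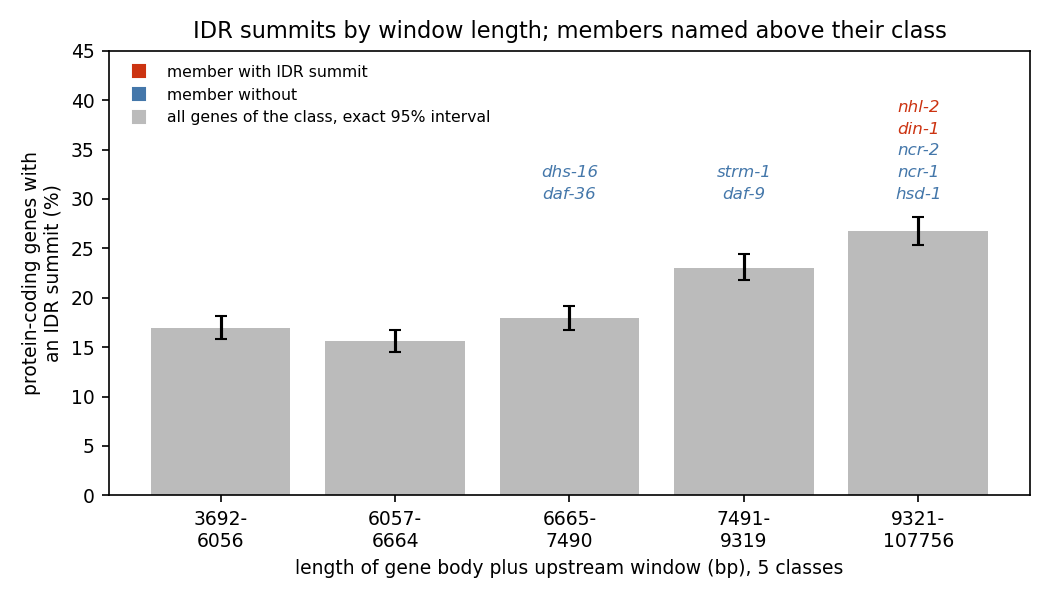
Bars show the percentage of protein-coding genes with an IDR summit in the gene body or 5 kb upstream for 5 classes of window length in bp, with exact 95% intervals. The genes described here are named above their class, and the 2 with a peak, din-1 and nhl-2, are in the longest class, where the share was 26.7%.

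The lists of peaks together with background reach far lower signals. The pooled list held 30000 regions and had summits at 6 of the 9 genes, against 67.2% of all protein-coding genes. The replicate 1 list, with 26941 regions, had them at 7 of 9 genes, against 68.8%, and the replicate 2 list, with 22704 regions, at 7 of 9, against 63.8%. These counts lay near the shares of all genes, and presence in such a list is no call of binding. The signal is the authors' value on the peak caller's scale and is used to rank regions within a list; the lowest IDR peak had 95.4. The IDR peaks are the highest-ranked regions of the pooled list, so a peak has the same signal and rank in both. No read counts are given, so the depth behind the signals is unknown.

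**Figure D2:**
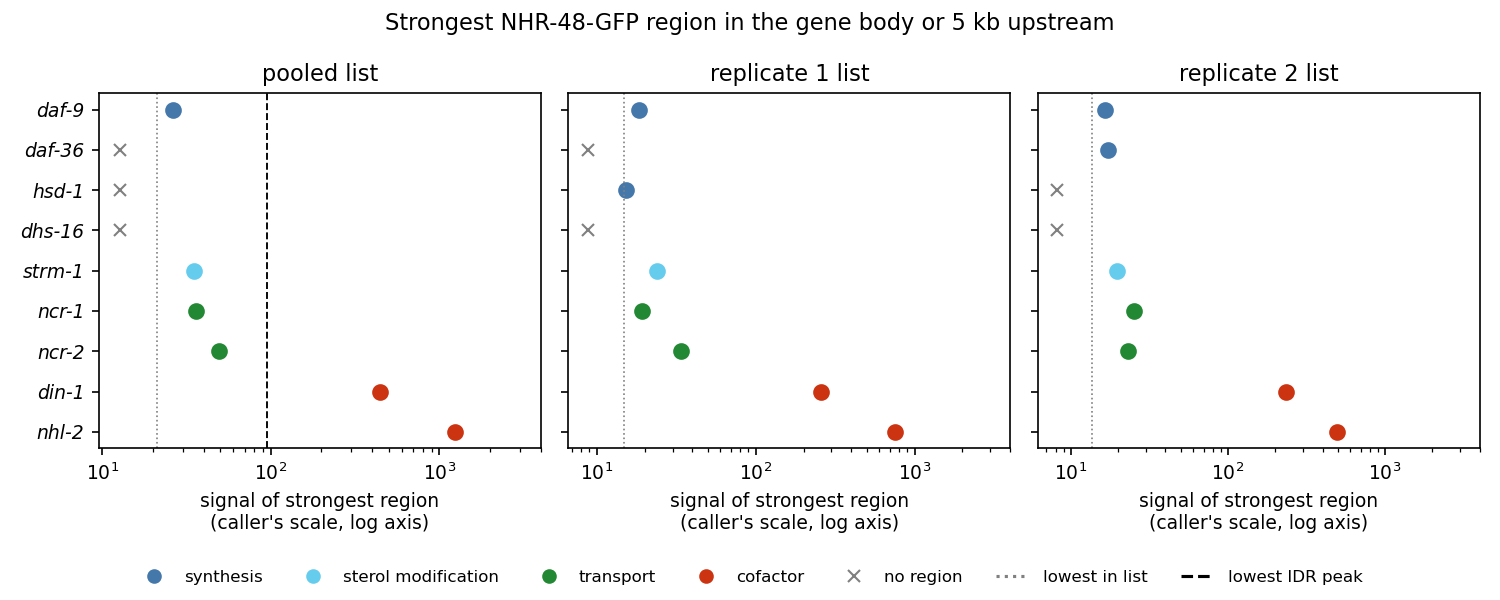
Each point is the signal (log axis, caller's scale) of the strongest region with its summit in the gene body or 5 kb upstream, in the pooled list and in each replicate's list, with crosses where a list had no region. In the pooled list din-1 (446) and nhl-2 (1240.1) lie above the lowest IDR peak (95.4), and the sterol genes with a region lie between 26.3 and 49.5.

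The genes of hormone synthesis had low-ranked regions or none. The gene daf-9, which encodes the P450 of the last synthetic step (X 6196927 to 6200823, plus strand), had 2 pooled regions. The stronger had its summit 2759 bp upstream of the gene's 5′ end, in an intron of another protein-coding gene, with a signal of 26.3 (rank 23281). That summit was covered by a region of replicate 2 (16.6, rank 16903) and by none of replicate 1, whose strongest region at daf-9 lay 1791 bp upstream (18.4). The replicates thus placed their strongest daf-9 regions at different positions.

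The gene daf-36 (V 10223513 to 10225710, minus strand), which encodes a Rieske-type oxygenase that acts early on cholesterol, had 0 pooled and 0 replicate 1 regions and 1 region of replicate 2, inside the gene, with a signal of 17.2 (rank 16015). The gene hsd-1 (I 13720125 to 13724453, minus strand), which encodes a hydroxysteroid dehydrogenase homologue, had 1 region in replicate 1 (15.2, rank 25984) and 0 in the pooled and replicate 2 lists. The short-chain dehydrogenase gene dhs-16 (V 5983745 to 5985509, plus strand), which acts between DAF-36 and DAF-9, had 0 regions in all 4 lists. No region at these 3 genes appeared in both replicates.

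The gene strm-1 (III 2402070 to 2406335, plus strand) encodes a sterol methyltransferase that draws dietary sterols away from hormone synthesis. Its strongest pooled region lay 652 bp upstream (signal 35.2, rank 15304) and was covered by regions of both replicates, with 24.0 in replicate 1 (rank 13249) and 19.8 in replicate 2 (rank 12621). The replicate 1 summit was 3 bp and the replicate 2 summit 215 bp away, and the replicate 2 summit was nearer to a second pooled summit 886 bp upstream (31.8).

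The transport genes had weak regions only. The genes ncr-1 (X 4472244 to 4488857, minus strand) and ncr-2 (III 8258345 to 8265805, plus strand) encode homologues of the human Niemann-Pick type C protein, which moves cholesterol out of lysosomes. At ncr-1 the pooled list had 8 regions in a window of 21614 bp, with signals of 21.4 to 35.8, and the strongest, 7994 bp into the gene, was covered in replicate 2 (19.7, rank 12697) but not in replicate 1. The strongest ncr-1 region of replicate 1 lay 4578 bp upstream (19.2) and that of replicate 2 lay 1679 bp upstream (25.1), so the 3 lists differed in its place. At ncr-2 it had 2, and the stronger, in a coding exon 4449 bp into the gene (49.5, rank 8821), was covered in replicate 1 (24.7, rank 12589) and replicate 2 (23.3, rank 9530). Replicate 1 had its own strongest region 5628 bp into the gene (33.9, rank 7516). The pooled value of 49.5 was the highest pooled signal among the 7 sterol genes, and the lowest IDR peak had 1.93 times as much.

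Over these 7 genes there were 15 pooled regions, of which both replicates covered 4, a single replicate 8 and neither replicate 3. Coverage was not counted over all pooled regions, so whether these numbers are usual for regions outside the IDR list was not tested. The nearest IDR summit on the chromosome lay 8065 bp from the 5′ end of daf-9 and 8075 bp from that of dhs-16, on the downstream side of both. The distance was 15388 bp for ncr-2, 18308 bp for ncr-1, 20579 bp for daf-36, 32118 bp for hsd-1 and 174821 bp for strm-1. The peaks nearest to these 7 genes were themselves at 101.0 to 252 in signal.

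The corepressor gene din-1 carried the most NHR-48 sites of the 9 genes. It lies on the minus strand at II 11614770 to 11633609 and encodes a SPEN-family protein, in long and short forms, of which the short form is known as the DAF-12 corepressor. Its window of 23840 bp held 8 IDR summits, 3.36 per 10 kb, against 0.319 per 10 kb over the longest length class. As many or more were found at 6 other protein-coding genes of 19973, and the highest number at any gene was 11. These genes and din-1 were all in the longest length class, which held 3995 genes. For all 8, din-1 had the nearest protein-coding 5′ end and was the one protein-coding gene under the rule. Merging overlapping IDR peaks left the 9 summits at din-1 and nhl-2 as they were.

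The 8 summits formed a set of 5 around its 5′ end and a set of 3 deep in the gene, 12615 bp apart. The strongest peak, II 11635786 to 11636066, had its summit 2342 bp upstream of the gene's 5′ end. Its signal was 446 in the pooled list (rank 258), 219 in replicate 1 (rank 395) and 233 in replicate 2 (rank 171). It was the strongest din-1 region of the pooled list and of replicate 2. A peak at II 11634095 to 11634570, with its summit 724 bp upstream in the ncRNA gene ZK20.8, had 274 pooled (rank 663), 152 in replicate 1 and 127 in replicate 2. Between these lay a peak 1615 bp upstream (II 11635103 to 11635237) with 150.1 pooled, 96.0 in replicate 1 and 51.1 in replicate 2, its summit next to the snoRNA gene ZK20.9.

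The other 2 peaks of this set had the lowest pooled signals of the 8 at din-1. The one 3907 bp upstream (II 11637278 to 11637753) had 110.1 pooled (rank 2788), 77.4 in replicate 1 (rank 2181) and 54.5 in replicate 2 (rank 2415). The one 815 bp inside the gene (II 11632556 to 11633031), in an intron and 521 bp upstream of the 5′ end of transcript F07A11.6e.1, had 100.5 pooled (rank 3148), 39.9 in replicate 1 (rank 5732) and 56.8 in replicate 2 (rank 2288). Its replicate 1 rank was below the 3361 strongest regions of that list.

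The internal set lay near the 5′ ends of transcripts F07A11.6d.1 and F07A11.6g.1. The annotation gives din-1 7 transcripts with 6 different 5′ ends, and F07A11.6d.1 (II 11614770 to 11620078) starts within the gene and holds its last exons; the sources used here do not say whether it encodes the short form. The peak at II 11619891 to 11620363 had its summit 101 bp upstream of this 5′ end, inside an ncRNA gene (F07A11.10) and a snoRNA gene (F07A11.15). Its signal was 392 in the pooled list (rank 331), 257 in replicate 1 (rank 274) and 134.7 in replicate 2 (rank 498). In replicate 1 it was the strongest region of din-1, while in replicate 2 and in the pooled list the upstream peak at 2342 bp was.

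Next to it, a peak at II 11619290 to 11619481 had its summit 705 bp downstream of the same 5′ end, in the 5′ UTR, with 286 pooled (rank 617), 182 in replicate 1 (rank 543) and 105.3 in replicate 2 (rank 786). The last, at II 11617543 to 11618018, lay in an intron and in the ncRNA gene F07A11.12, 662 bp upstream of the 5′ end of transcript F07A11.6g.1. It had 144.5 pooled (rank 1879), 109.8 in replicate 1 (rank 1279) and 38.5 in replicate 2 (rank 4071), and it was not among the 3361 strongest regions of replicate 2. In the 12615 bp between the sets there were 9 weaker pooled summits, with signals of 23.0 to 80.3 and a median of 32.7. The strongest of these, 80.3 (rank 4213), was the highest-ranked din-1 region outside the IDR list. It lay 13229 bp into the gene and was covered in replicate 1 (77.9, rank 2164) but not in replicate 2. Its region, II 11620316 to 11620441, overlapped the IDR peak at II 11619891 to 11620363, so it belongs to the edge of the internal set. The next strongest had 38.7. The stretch was defined as the largest gap between IDR summits of din-1, so it holds none by definition.

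**Figure D3:**
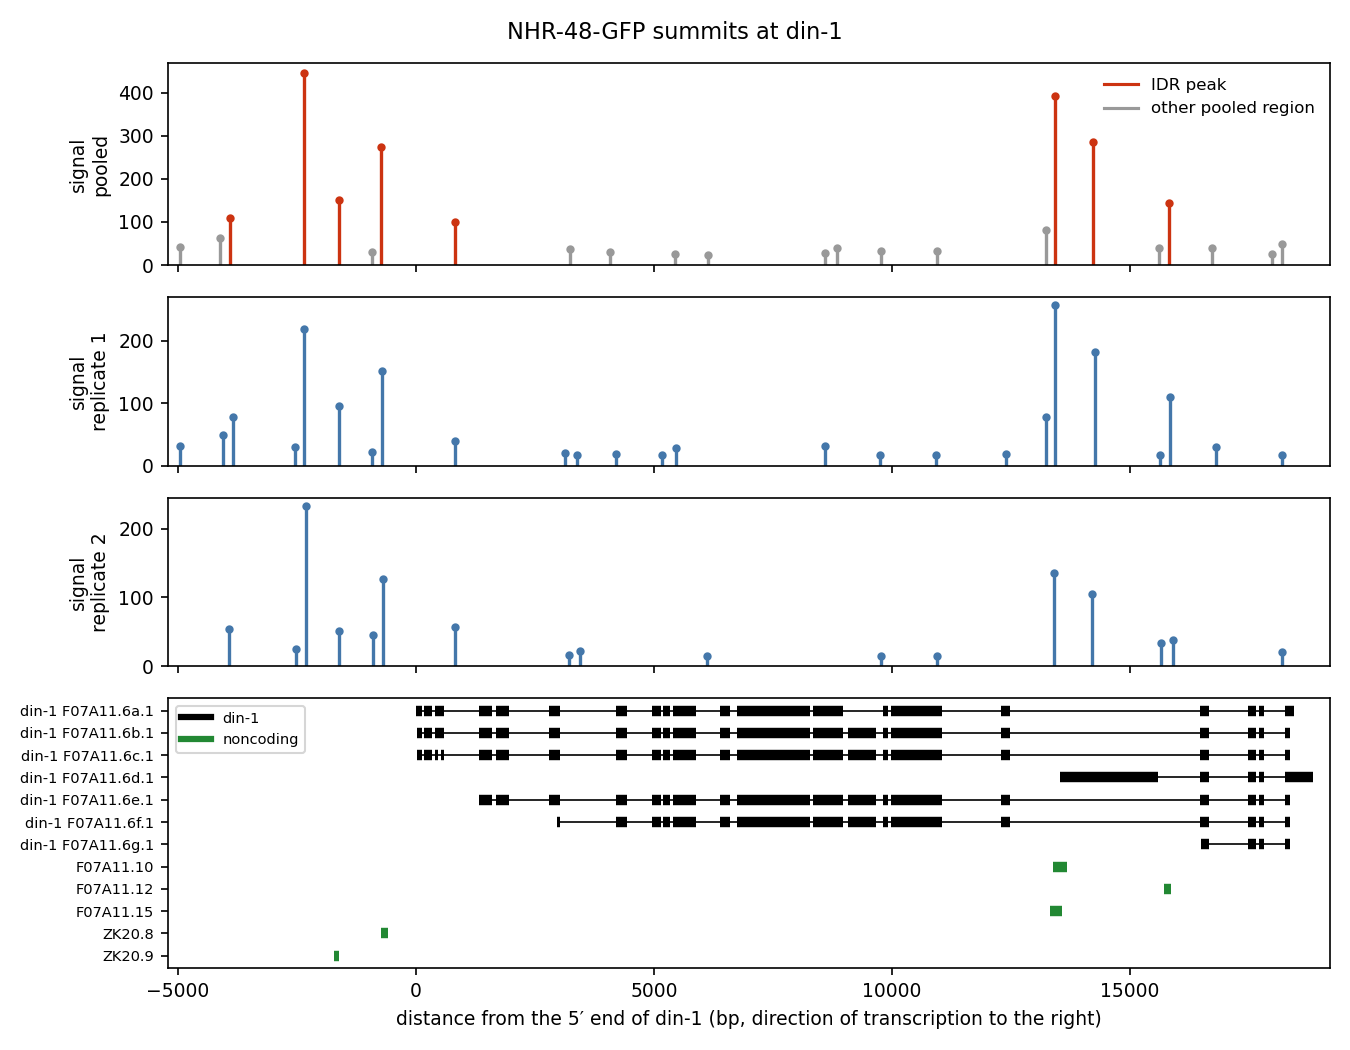
Vertical lines give the signal (caller's scale, a separate axis for each list) of every summit at din-1 by distance in bp from its 5′ end, with transcription to the right and exons below. The 8 IDR peaks fall into a set of 5 from 3907 bp upstream to 815 bp inside and a set of 3 deep in the gene. The set of 3 lies near the starts of F07A11.6d.1 and F07A11.6g.1, with 12615 bp between the sets.

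The gene nhl-2 had the strongest single site of the 9 genes. It lies on the minus strand at III 4893658 to 4899085, and its IDR peak, III 4899679 to 4900164, had its summit 842 bp upstream of the gene's 5′ end. The signal was 1240.1 in the pooled list (rank 47), 750.4 in replicate 1 (rank 41) and 496 in replicate 2 (rank 45). The replicates placed the summit 24 bp and 3 bp from the pooled one. The pooled signal was 2.78 times that of the strongest din-1 peak.

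The nhl-2 peak cannot be given to nhl-2 alone. It lay between 2 divergent genes, nearer to the 5′ end of tag-340 (581 bp) than to that of nhl-2, and inside the ncRNA gene F26F4.14. The other 9 pooled regions of nhl-2 had signals of 21.3 to 42.9, and both replicates covered 1 of them, a region in a coding exon 3144 bp into the gene with 22.3 in replicate 1 and 19.9 in replicate 2. Replicate 1 also had a second summit 1033 bp upstream (82.8, rank 1984). Its region, III 4899659 to 4900177, was nearly the same interval as that of the replicate 1 main peak (4899659 to 4900166), so it is not a separate site. In replicate 2 a region with its summit 1052 bp upstream was near the bottom of the list (14.5, rank 20820).

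**Figure D4:**
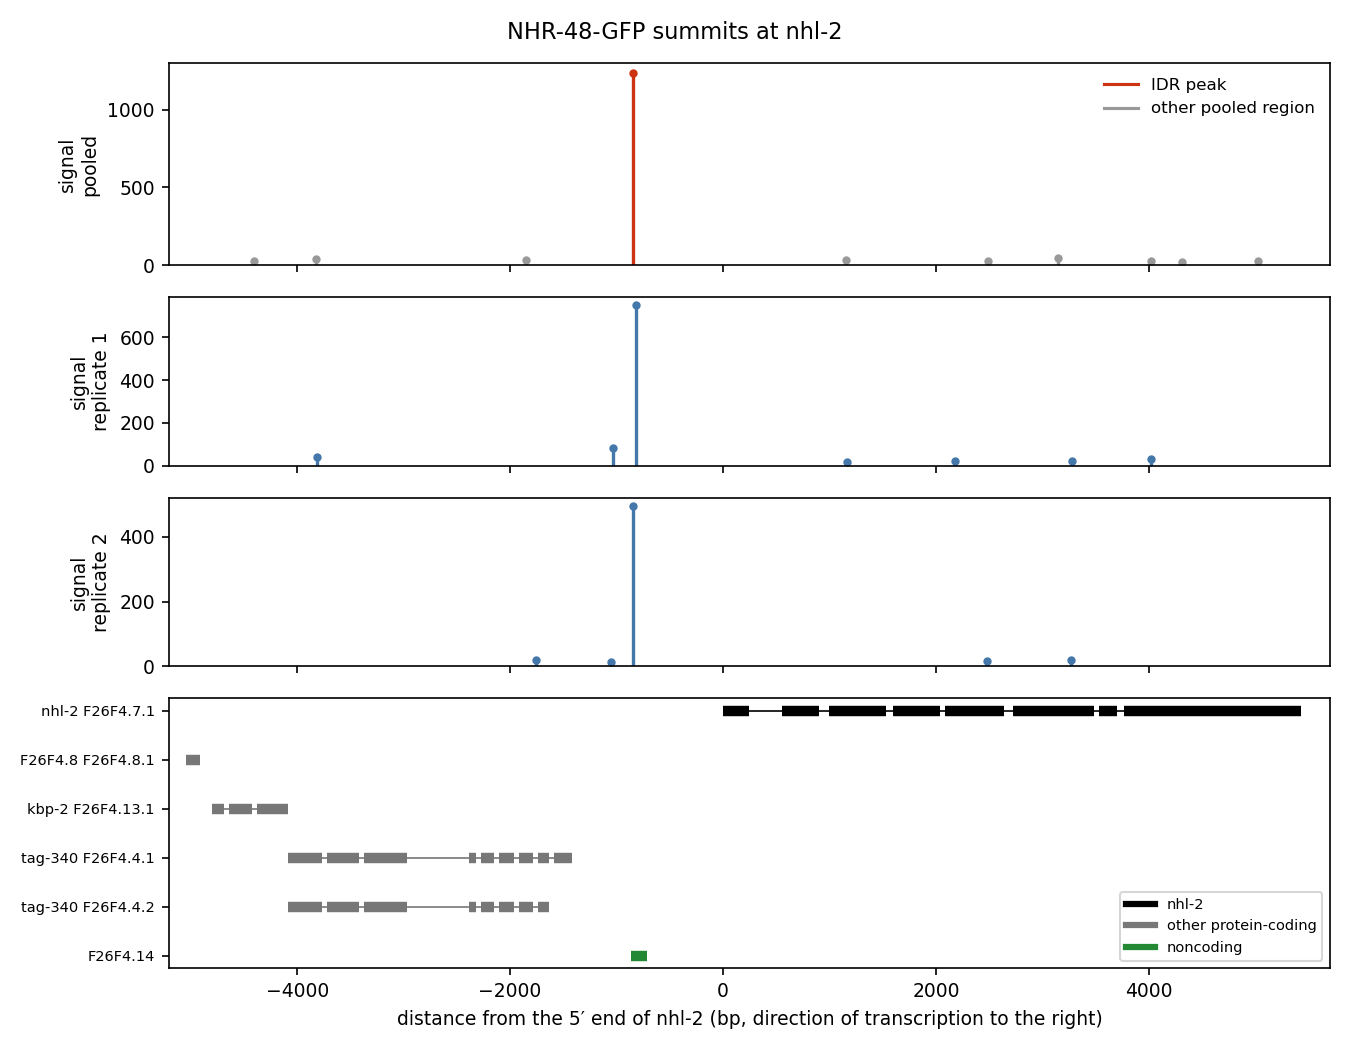
Vertical lines give the signal (caller's scale, a separate axis for each list) of every summit at nhl-2 by distance in bp from its 5′ end, with transcription to the right and exons below. A single peak 842 bp upstream (1240.1 pooled) stands between nhl-2 and tag-340, and the other pooled regions lie at 42.9 or less.

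The summits at these genes lay in noncoding RNA genes in 4 of 9 cases (44.4%), against 369 of 3338 nuclear IDR summits (11.1%, exact interval 10.01 to 12.2). The 4 were the nhl-2 peak and the din-1 peaks at 724 bp upstream, at the F07A11.6d.1 start and before F07A11.6g.1. Since 3 of the 4 belong to a single gene, the share was not tested. A site of a noncoding gene and a site of the promoter it overlaps cannot be told apart in these lists.

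Both replicates covered all 9 summits, and 7 of the 9 ranked among the 3361 strongest regions of each replicate. The exceptions were the 2 din-1 peaks named above, which were each below that rank in a single replicate. The IDR list was made from these replicates, so the covering is not independent of it. The same counts were not made over all IDR peaks, so 7 of 9 cannot be called high or low for this list.

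**Figure D5:**
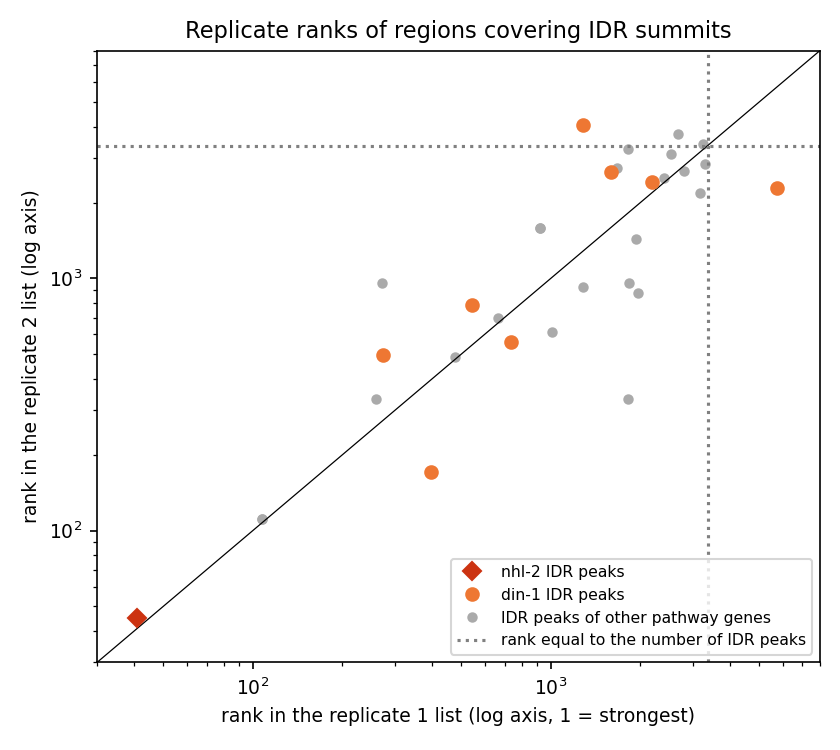
Each point is an IDR peak, at the rank of the region covering its summit in the replicate 1 list (x) and the replicate 2 list (y), both on log axes, with the line of equal ranks and dotted lines at rank 3361. The nhl-2 peak is at ranks 41 and 45, the din-1 peaks range from 171 to 5732, and grey points are peaks of other pathway genes.

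Other genes of the same pathway were taken from a list of 21, of which 13 had an IDR summit. The whole list was drawn up with earlier results of these data known, so its counts are a description and no test. It mixes protein-coding and microRNA genes, so shares of all genes are given for each group below. The 12 other genes of sterol and hormone handling had them in 4 cases (33.3%), against 20.0% of all protein-coding genes. The receptor gene daf-12 had 2 intronic peaks, the stronger with 335 pooled, 198 in replicate 1 and 136.0 in replicate 2, and its relative nhr-8 had 2 weaker ones, at 116.6 pooled 1105 bp upstream, where the 5′ end of emc-6 was nearer, and at 107.7 in its 5′ UTR. The gene emb-8, which encodes the reductase that supplies electrons to P450 enzymes, had peaks 1766 bp (202) and 3171 bp (104.9) upstream, with its own 5′ end the nearest. A steroid dehydrogenase gene, let-767, had a peak 4962 bp upstream (99.9) that lay nearer to trmt-10C.2. The other 8 genes (hsd-2, hsd-3, stdh-1, stdh-2, stdh-3, stdh-4, lrp-1 and cyp-44A1) had 0 IDR summits.

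The partners of NHL-2 and the let-7 family genes each had sites. All 5 genes of the microRNA complex in the list had an IDR summit, against 20.0% of all protein-coding genes and 23.1% and 26.7% in the length classes these genes belong to. The strongest was at ain-1, which encodes a GW182-like scaffold, 944 bp upstream with 764 pooled (rank 116), 467 in replicate 1 and 304 in replicate 2, followed by ain-2 (205, inside the gene), the DEAD-box helicase gene cgh-1 (186, 724 bp upstream) and the Argonaute genes alg-1 (121, 3429 bp upstream) and alg-2 (109.5, 36 bp upstream). The ain-1, ain-2 and cgh-1 peaks also lay at other protein-coding genes by the same rule. The 5 genes were few and their list was drawn up with earlier results of these data known, so the count is a description.

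The 4 microRNA genes let-7, mir-48, mir-84 and mir-241, which DAF-12 is known to regulate, also each had an IDR summit, against 28.4% of 261 annotated microRNA genes. Summits lay 2232 bp upstream of mir-84 (414 pooled, 268 in replicate 1 and 162 in replicate 2) and 1820 bp upstream of let-7 (245 pooled, 127.0 in replicate 1 and 121.5 in replicate 2). A summit 473 bp upstream of mir-241 (345 pooled, 257 in replicate 1 and 93.6 in replicate 2) was also within 5 kb of mir-48. These neighbouring genes shared 3 summits, which do not count as separate observations. Of its 5 summits, mir-48 also had those 188 bp (135.6 pooled) and 517 bp (109.6 pooled) upstream, which were not in the window of mir-241. The upstream let-7 summit lay 162 bp from the 5′ end of the protein-coding gene C05G5.2. The other let-7 summit lay 680 bp inside the gene model and 161 bp upstream of the 5′ end of transcript C05G5.6.2, with 140.7 pooled, 93.0 in replicate 1 and 49.8 in replicate 2.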

How the data were processed

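Chromatin from L4 larvae expressing NHR-48-GFP was precipitated in 2 biological replicates. Per the deposited file listings, regions (peaks together with background) were called by the authors for each replicate and for both pooled, against 1 control file, and the IDR list was derived from these. The aligner, the caller and their thresholds are not given in the sources used here. Each deposited signal and -log10 q value is the authors' own; q was at its highest in 82.9% of the IDR peaks and was not used for ranking. No counts are given, so depth is unknown. The ce11 lists were used and the ce10 lists were not used here.

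Summits are the deposited start plus the offset, counted from 1. Gene models came from Ensembl release 115 and sequence from RefSeq (WBcel235); no region passed a chromosome end. The microRNA genes were matched by RefSeq symbol and coordinates. A replicate region matched a summit when it covered that base, taking the highest signal. There is 1 group, so no test was run. The 95% intervals of shares are exact (Clopper-Pearson) and reflect counting error alone, with genes or summits taken as independent. The genes and lists were chosen with earlier results of these data known. Text names all 9 genes, pathway genes with an IDR summit, and genes sharing or nearest to a summit; the noncoding genes, the other pathway genes and single weak regions beyond the strongest were named after their values were seen. The assignment of summits to genes was tested on simulated data. The software was matplotlib 3.10.9, scipy 1.17.1, numpy 2.4.6 and pandas 2.3.3 under Python 3.11.15.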

Additional observations from a re-analysis of the deposited data

How the results depend on the processing

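The 2 genes with an IDR summit were din-1 and nhl-2 under each alternative except the gene body alone, which left din-1 (1 gene, with 4 summits). With 1 kb upstream, 2225 protein-coding genes (11.1%) had a summit in place of 4004 (20.0%). With 2 kb there were 2756 (13.8%), and with the gene body alone 833 (4.17%). Ending the upstream window at the next protein-coding gene left 2688 (13.5%), while din-1 and nhl-2 kept their 9 summits. Keeping the IDR peaks above the list's median signal left 5 summits at the 9 genes and 2203 protein-coding genes. Leaving out a replicate, with the 3361 strongest regions of the other, gave 2 genes in both cases, 9 to 10 summits, 3940 to 3991 protein-coding genes, a din-1 rank of 171 to 274 and an nhl-2 rank of 41 to 45. With windows of 200 bp, GAGAGA was in 5 of 9 windows, against 35.4% of all, and AGTTCA in 2, against 11.4%. AGTGCA was in 3 of these windows, against 10.9%. The cause of these shifts was not tested. No paired analysis was possible because there is a single group. The signal gives no depth, and whether a gene near a peak is regulated by NHR-48 was not tested.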
